A study of Rattus norvegicus with 17 samples.

Results

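Transcripts of 9 genes of the contractile apparatus and the intermediate filaments were followed in rat liver: Acta2, Tagln, Myl9, Cnn1, Cald1, Tpm1, Tpm2, Des and Vim. They are textbook genes of myofibroblasts, chosen with earlier results of these data known. Each was read from the microarray probe sets annotated to that symbol alone. These were 18 of 31042 probe sets on the Affymetrix Rat Genome 230 2.0 array. Of the 18, 12 probe sets of 8 genes exceeded a log2 intensity of 3.95 on at least 5 of 17 arrays and were tested, among 15965 probe sets and 9736 genes in all. The level of 3.95 is the median of all values. A further 5 probe sets are annotated to Acta2 and the cardiac actin gene Actc1 together and were left out.

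Each array held the liver RNA of 1 rat, taken at week 9. The 6 sham rats had an abdominal incision at week 7 and saline from an osmotic mini-pump under the skin. In the 6 ligated saline rats the bile duct was ligated at week 7 and saline was infused the same way. The 5 ligated ghrelin rats were ligated and received ghrelin, a hormone of the stomach, at 10 µg per kg per day from the pump. No group was ligation-free with ghrelin, so ghrelin could be compared only within ligation, and all groups carried a pump. The labels give neither strain nor sex. Array numbers within a group are names in the order of deposit. P-values set a difference of group means against the spread between rats.

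Bile duct ligation blocks the flow of bile and is a standard model of cholestatic fibrosis. In injured liver, stellate cells around the sinusoids and fibroblasts around the portal tracts can become myofibroblasts, which secrete collagen and contract. Contraction uses actin filaments moved by myosin, with tropomyosin, calponin and caldesmon bound along the filament, while desmin and vimentin form the separate intermediate filament network. The same contractile genes are also used by the smooth muscle of blood vessels, and vimentin is made by leukocytes and endothelium as well. In whole liver, a change in the number of such cells and a change in RNA per cell cannot be told apart.

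Serum response factor, which drives many contractile genes, binds the CArG box, and promoters of 3 members are shown to place that motif. The RefSeq table (GRCr8) held 8 promoters of 7 of the 9 genes, each 300 bases from 250 before to 50 after the start. No promoter of Tagln or Myl9 was matched. Capitals mark CArG boxes with up to 1 mismatch in the 6 central bases, and the letters TATAA, on either strand. They are Acta2, whose protein is the usual marker of myofibroblasts, and the filament genes Des and Vim.
Acta2, chr1:241172454-241172753, minus strand: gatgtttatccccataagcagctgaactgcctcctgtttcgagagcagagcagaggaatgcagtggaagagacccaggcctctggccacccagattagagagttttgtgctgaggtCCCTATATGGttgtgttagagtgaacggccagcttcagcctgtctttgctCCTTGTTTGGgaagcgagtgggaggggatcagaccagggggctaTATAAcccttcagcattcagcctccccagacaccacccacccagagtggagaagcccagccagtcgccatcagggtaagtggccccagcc
Des, chr9:84299376-84299675, plus strand: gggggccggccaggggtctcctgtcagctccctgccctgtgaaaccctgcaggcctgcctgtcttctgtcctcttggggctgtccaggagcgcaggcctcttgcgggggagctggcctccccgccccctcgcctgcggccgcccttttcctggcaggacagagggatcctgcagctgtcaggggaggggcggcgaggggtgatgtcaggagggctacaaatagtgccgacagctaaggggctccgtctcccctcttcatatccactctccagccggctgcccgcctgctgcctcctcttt
Vim, chr17:81577011-81577310, plus strand: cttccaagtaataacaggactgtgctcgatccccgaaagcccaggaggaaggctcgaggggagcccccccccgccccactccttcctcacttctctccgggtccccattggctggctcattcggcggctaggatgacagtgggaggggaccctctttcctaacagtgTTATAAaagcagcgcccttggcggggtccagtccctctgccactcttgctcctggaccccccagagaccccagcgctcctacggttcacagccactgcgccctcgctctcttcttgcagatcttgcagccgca
The Acta2 window held 2 such CArG boxes, CCCTATATGG starting 134 bases and CCTTGTTTGG starting 84 bases before the gene's start, and TATAA 40 bases before it. No other member promoter held a CArG box by this search. Of all 33469 promoters of that length 9.42% held one with up to 1 mismatch, and 1.64% held an exact one, as did 0 of the 8 member promoters. TATAA, which was found in 26.2% of all promoters, occurred in those of Acta2, Vim and 1 of the 2 Cald1 promoters. In Vim it overlapped a match on the other strand. A match is a description of the letters.

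Arrays of a group correlated with each other at r of 0.988 to 0.995 over all probe sets. The median intensity of an array was 14.2 to 14.7 in sham, 16.1 to 17.5 in ligated saline and 15.4 to 16.4 in ligated ghrelin rats. The median ligation change of all kept probe sets was lower by 0.15 after quantile normalization and by 0.19 with equal array medians. The 3′ minus 5′ log2 signal of the beta-actin controls, which rises as RNA degrades, averaged 2.09 ± 0.167 (SD, n = 6) for sham rats. For ligated saline rats it averaged 1.94 ± 0.11 (SD, n = 6), and for ghrelin-treated ones 2.11 ± 0.302 (SD, n = 5). Ligated ghrelin 3 had the highest value, 2.62. The same signal of the GAPDH controls averaged 0.10 ± 0.092 (SD, n = 6) in sham and 0.12 ± 0.063 (SD, n = 6) in ligated saline rats. In ligated ghrelin rats it averaged 0.27 ± 0.206 (SD, n = 5). Between ligated ghrelin and ligated saline rats an exact two-sided permutation test gave p = 0.229 for beta-actin and 0.0541 for GAPDH. Among marker genes of other cell types, all 5 measured cholangiocyte markers were higher with ligation. Sham values were below 3.95 on 6 arrays for Sctr and Cftr, on 5 for Krt7 and on 2 for Krt19. These genes were tested through their ligated arrays, so the count is no separate check of the labelled operation. Sctr, the secretin receptor, was at least 5.33 log2 units higher, with its sham values counted as 3.95.

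Liver of ligated rats held far more contractile and filament transcript than sham liver. Of the 8 tested members, 8 rose in ligated saline against sham rats, where 37.5% of all genes rose, and 7 of them did not overlap between the groups, as 25.9% of genes did not in that direction. Their median change was 2.31 on the log2 scale against 0.07 for all genes. Because the members were chosen with earlier results of these data known, the comparison with all genes is a description. The rise ran from 19.2-fold for Tagln to 1.23-fold for Cald1. These values are from limma's fit over all kept probe sets, with Benjamini-Hochberg adjustment over them. Of these members 7 met the filter on sham arrays alone, Acta2 on 5 and the others on all 6. Des exceeded the filter level on 4 sham arrays and was tested through its ligated arrays, so it adds nothing to the count: without it 7 of 7 rose and 6 of 7 did not overlap, with a median change of 2.51.

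Acta2 encodes alpha smooth muscle actin, the actin of the contractile stress fibre. Its log2 intensity had a lowest, median and highest value of 2.92, 4.47 and 4.64 in sham and of 6.37, 6.75 and 7.54 in ligated saline rats. The groups were apart, and sham 2 lay well below the other sham arrays, which began at 4.22. The difference was 2.64 ± 0.276 (SE), a 6.24-fold rise (limma adjusted p = 5.05e-07). Without sham 2 it was 2.38. This rise was read by probe set 1370857_at only. An exact two-sided permutation test gave p = 0.00216, the smallest it can give in any of the 3 comparisons, and each other member whose groups were apart in this comparison had the same value.

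Tagln, which encodes the actin-binding protein transgelin, had the largest rise of the members. Sham arrays held 4.38, 6.02 and 6.26 (lowest, median, highest) and ligated saline arrays 8.50, 10.00 and 11.41. All ligated arrays were above all sham arrays, with sham 6 far below the other sham arrays. The rise was 4.26 ± 0.434 (limma adjusted p = 3.78e-07). Within each array, Tagln rose by 1.62 more than Acta2 did (exact permutation test, Benjamini-Hochberg adjusted over 8 members, p = 0.0173).

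Myl9, a regulatory light chain of smooth muscle myosin, went from 7.84, 8.04 and 8.42 in sham to 8.89, 9.53 and 10.31 in ligated saline rats. The groups were apart, and the spread was wider in ligated rats. The change was 1.48 ± 0.213, or 2.79-fold (limma adjusted p = 1.5e-05). It was 1.16 smaller than that of Acta2 within the array (exact permutation test, adjusted p = 0.00577).

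Cnn1 encodes calponin, a protein of differentiated smooth muscle that binds actin and restrains myosin. Its probe set lay between 2.46 and 3.20 on all 17 arrays, below the filter level, so it had no test. Its median was 2.60 in sham, 2.50 in ligated saline and 2.51 in ligated ghrelin rats. A change of Cnn1 was not detectable at this signal.

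Caldesmon, encoded by Cald1, binds actin and tropomyosin, and its measured change depended on the probe set. Probe set 1371969_at, the brighter one, held 11.62, 11.96 and 12.09 in sham and 12.05, 12.18 and 12.41 in ligated saline rats. These groups overlapped, though 6 of 6 ligated arrays were above the sham mean. The difference was 0.30 ± 0.091 (limma adjusted p = 0.00831; exact permutation p = 0.00649). It fell to 0.11 (limma adjusted p = 0.276) with equal array medians, where the call was lost. Probe set 1368824_at changed by 0.06 ± 0.204 (limma adjusted p = 0.827), and the remaining one, 1368823_at, was below the filter level on all arrays.

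**Figure D1:**
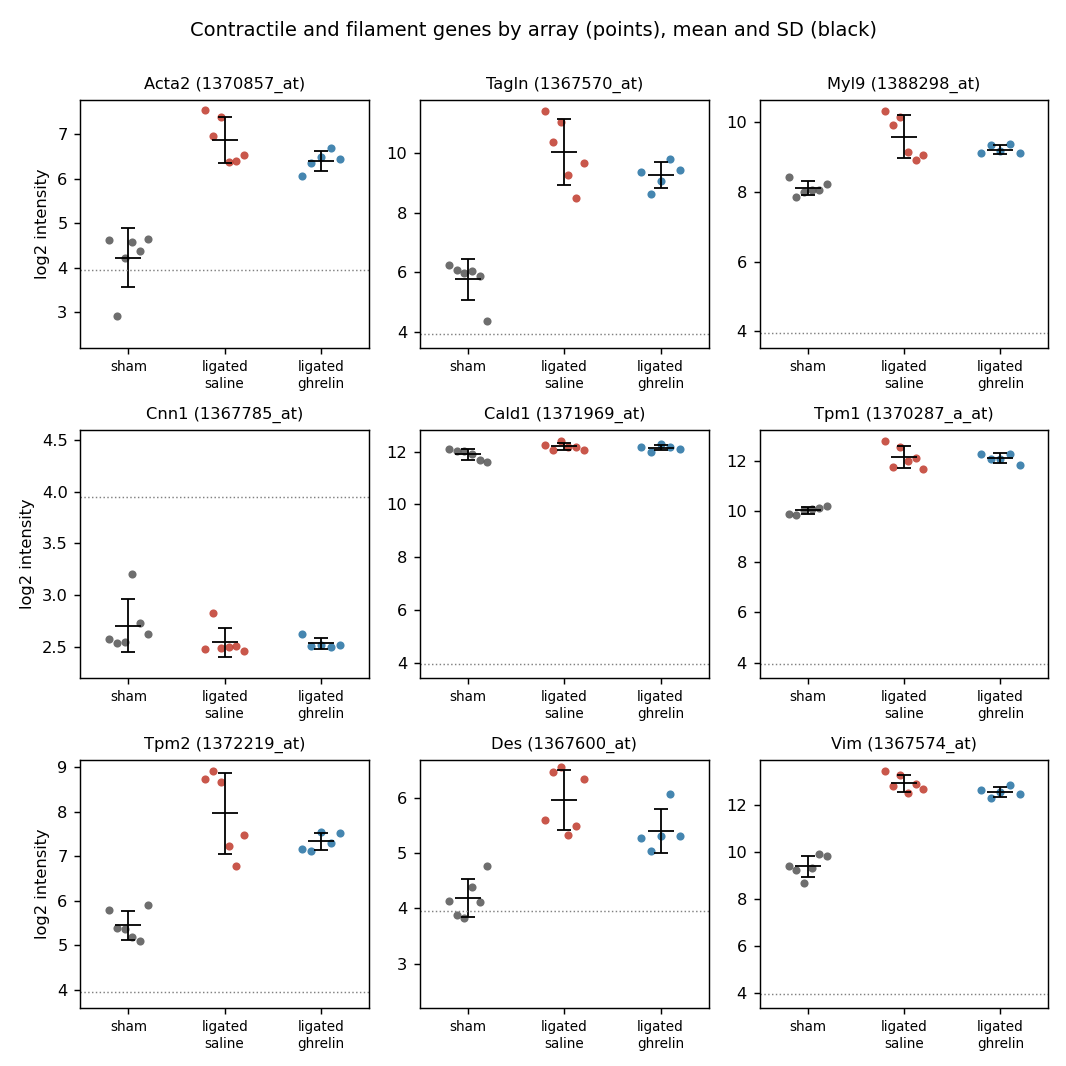
Log2 intensity of the probe set that stands for each of the 9 genes, 1 panel per gene with its own vertical axis; points are single rats, black marks are group means with SD, and the dotted line is the filter level of 3.95. Sham arrays lie below all ligated arrays in each gene but Cald1, where groups overlap, and Cnn1, which stays under the filter level.

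The tropomyosins lie along the actin filament and set where myosin can bind. Tpm1 was read by 7 probe sets, of which 4 were tested; over all members 10 of 12 tested probe sets rose, against 34.2% of all probe sets. The brightest, 1370287_a_at, held 9.84, 10.09 and 10.22 in sham and 11.67, 12.05 and 12.79 in ligated saline rats, a rise of 2.10 ± 0.165 or 4.29-fold (limma adjusted p = 2.34e-08). The groups were more than 1 log2 unit apart. Probe sets 1370288_a_at and 1395794_at rose by 2.02 ± 0.215 and 1.76 ± 0.235 (limma adjusted p = 6.19e-07 and 7.24e-06). The fourth, 1368724_a_at, stood at 5.54 to 5.65 in sham and 5.58 to 6.00 in ligated saline rats and changed by 0.09 ± 0.0788 (limma adjusted p = 0.309). Tropomyosin transcripts are spliced into many forms, and which forms each probe set reads was not worked out here.

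Tpm2 (1372219_at) held 5.09, 5.38 and 5.91 in sham and 6.78, 8.07 and 8.92 in ligated saline rats. All ligated arrays were above all sham arrays, but the ligated values themselves ran over 2.14 log2 units. The rise was 2.51 ± 0.316, or 5.69-fold (limma adjusted p = 3.89e-06). Neither Tpm2 nor Tpm1 differed from Acta2 past the threshold within the array, by -0.13 and -0.54 (exact permutation test, adjusted p = 0.708 and 0.0618).

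**Figure D2:**
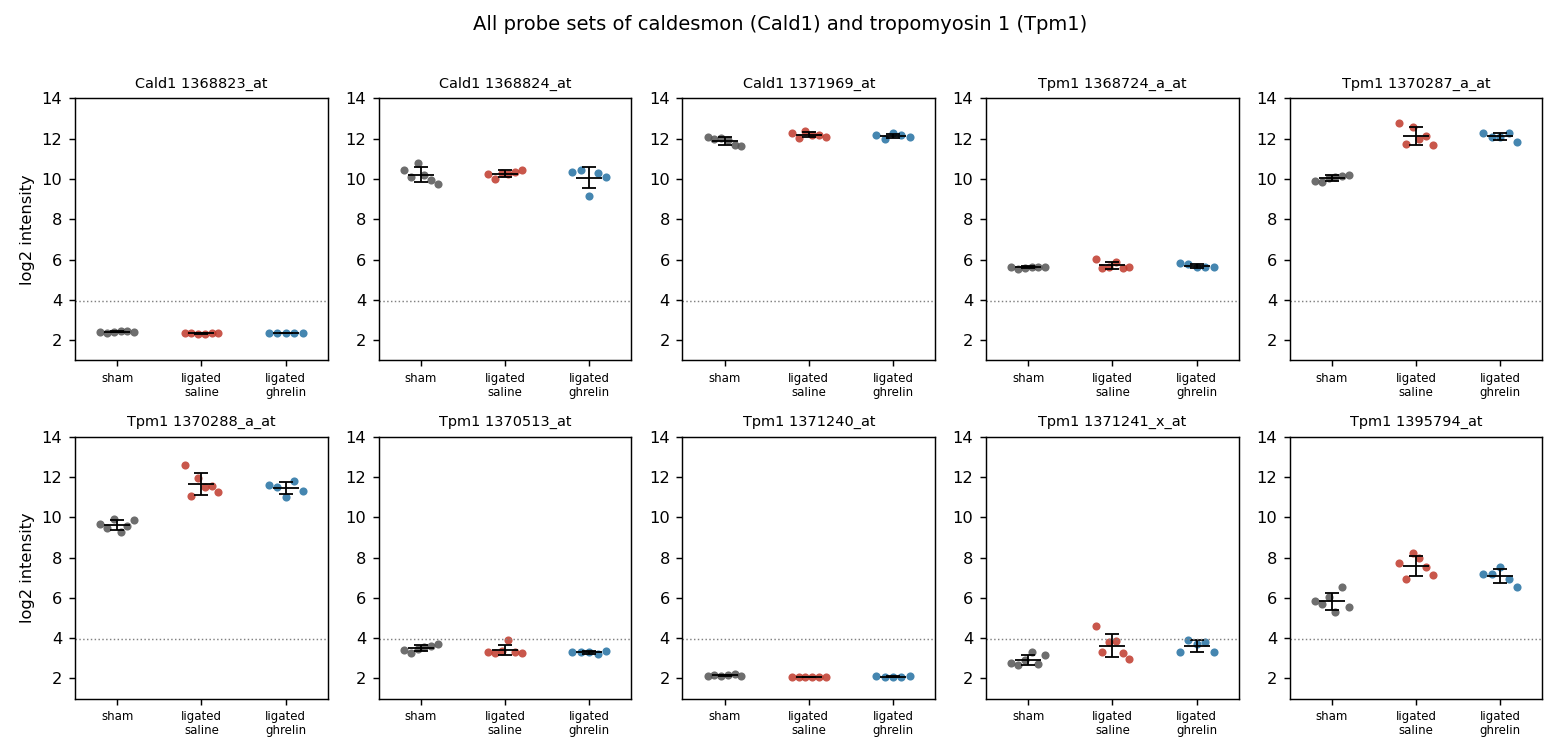
Log2 intensity of all 7 probe sets of Tpm1 and 3 of Cald1, 1 panel each, with 1 point per rat, the group means with SD in black and the filter level of 3.95 dotted. Among tested probe sets, 3 of Tpm1 are higher in ligated than sham rats by 1.76 to 2.10, while 1368724_a_at differs by 0.09, and the Cald1 probe sets differ by 0.30 and 0.06.

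Desmin, encoded by Des, is the intermediate filament of muscle and, in rat liver, a classical marker of stellate cells. It held 3.83, 4.13 and 4.76 in sham and 5.34, 5.97 and 6.56 in ligated saline rats. The groups were apart, with 2 sham arrays below the filter level. Its rise was 1.78 ± 0.239, or 3.43-fold (limma adjusted p = 7.43e-06), which was 0.86 less than that of Acta2 (exact permutation test, adjusted p = 0.0208).

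Vim encodes vimentin, the intermediate filament of mesenchymal cells. Its values were 8.69, 9.39 and 9.95 in sham and 12.52, 12.88 and 13.47 in ligated saline rats. The gap between the groups exceeded the range within either. The rise was 3.54 ± 0.197, or 11.6-fold (limma adjusted p = 5.89e-10), the smallest p among the members. It was 0.89 more than that of Acta2 (exact permutation test, adjusted p = 0.026). Of the 7 tested members set against Acta2 within the array, 5 passed, Cald1 (-2.34) among them, and 5 passed with p adjusted over these 7 alone. The adjustment over 8 includes Cnn1, whose values below the filter level are not read. With quantile normalization 5 of 7 passed as well, and equal array medians leave differences within an array as they are. Since sham values of Acta2 were near the filter level, these differences are approximate.

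Ghrelin did not change any of the members past the threshold. Of 8 tested members 0 were called in ligated ghrelin against ligated saline rats by limma, where 2.34% of all genes were called and 0.585% were called lower. At an unadjusted limma p under 0.05 there was 1 of 8, against 22.0% of all genes, and the exact permutation test gave 0 under 0.05. All 8 mean differences were below 0, with a median of -0.42 against 0.01 for all genes, though in some alternatives Cald1 and Tpm1 were above 0, by up to 0.02 and 0.09. The count of probe sets called over the whole array in this comparison depended on single rats, from 35 without ligated ghrelin 2 to 653 without ligated saline 4, while that of the members was 0 in every alternative run.

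The ligated ghrelin values of Acta2 were 6.07, 6.35, 6.48, 6.68 and 6.45. They reached from below the lowest ligated saline array to the middle of that group, and all were above every sham array. The difference from ligated saline was -0.46 ± 0.290, with a 95% interval of -1.07 to 0.15 (limma adjusted p = 0.372; exact permutation p = 0.104). Tagln held 9.37, 8.62, 9.05, 9.79 and 9.42 in ghrelin rats, a difference of -0.78 ± 0.455 with an interval of -1.75 to 0.18 (limma adjusted p = 0.331; exact permutation p = 0.177). That interval is wide, since ligated saline rats alone spanned 2.90 log2 units.

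Myl9 was nearly equal among ghrelin rats, at 9.10, 9.33, 9.15, 9.35 and 9.10. Its difference was -0.37 ± 0.223 with an interval of -0.84 to 0.10 (limma adjusted p = 0.353). Tpm2 held 7.17, 7.12, 7.54, 7.31 and 7.53 in ghrelin rats, a difference of -0.63 ± 0.332 with an interval of -1.33 to 0.07 (limma adjusted p = 0.286). For both genes the ghrelin rats were close together and overlapped the lower ligated saline rats. The brightest Tpm1 probe set held 12.29, 12.08, 12.07, 12.29 and 11.83, a difference of -0.04 ± 0.173 with an interval of -0.40 to 0.33 (limma adjusted p = 0.927). Cald1 (1371969_at) differed by -0.05 ± 0.0954, with values of 12.01 to 12.28 in ghrelin rats. The Tpm1 values sat inside the ligated saline range, and those of Cald1 overlapped it.

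Des held 5.27, 5.04, 5.32, 6.08 and 5.32 in ghrelin rats, a difference of -0.56 ± 0.251 with an interval of -1.09 to -0.03 (limma unadjusted p = 0.0388, adjusted p = 0.211; exact permutation p = 0.0823). It was the member with the lowest unadjusted p in this comparison, and 1 ghrelin rat lay above the ligated saline mean. Vim held 12.65, 12.30, 12.57, 12.86 and 12.51, a difference of -0.37 ± 0.207 with an interval of -0.81 to 0.07 (limma adjusted p = 0.313; exact permutation p = 0.0779). Here 5 of 5 ghrelin rats were below the ligated saline mean. Within the array, 0 of 7 tested members differed past the threshold from Acta2 in their ghrelin change (exact permutation test, lowest adjusted p = 0.416).

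Against sham rats, ligated ghrelin rats still had raised members. All 8 tested members rose, where 35.0% of all genes rose, with 7 of 8 apart from sham against 24.9% of genes. The comparison shares the sham arrays with the first and the ghrelin arrays with the second, so it is no separate support. The rises were 2.18 ± 0.290 for Acta2, 3.48 ± 0.455 for Tagln and 1.11 ± 0.223 for Myl9 (limma adjusted p = 1.06e-05, 8.93e-06 and 0.000526). Tpm1 and Tpm2 rose by 2.07 ± 0.173 and 1.88 ± 0.332 (limma adjusted p = 8.74e-08 and 0.00017). Des and Vim rose by 1.22 ± 0.251 and 3.17 ± 0.207 (limma adjusted p = 0.000653 and 5.59e-09). For these 7 genes the order of group means was sham, ligated ghrelin, ligated saline, and the last 2 did not differ past the threshold. Cald1 rose by 0.25 ± 0.0954 (limma adjusted p = 0.0336), and 5 of 5 ghrelin arrays were above the sham mean. That call was lost in 8 of 18 alternatives, 5 of which left out 1 rat: ligated ghrelin 1, 3 or 4 (change 0.25, 0.22 and 0.25, limma adjusted p = 0.0625, 0.0811 and 0.0629) or sham 5 or 6 (0.22 and 0.20, limma adjusted p = 0.0753 and 0.0785).

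**Figure D3:**
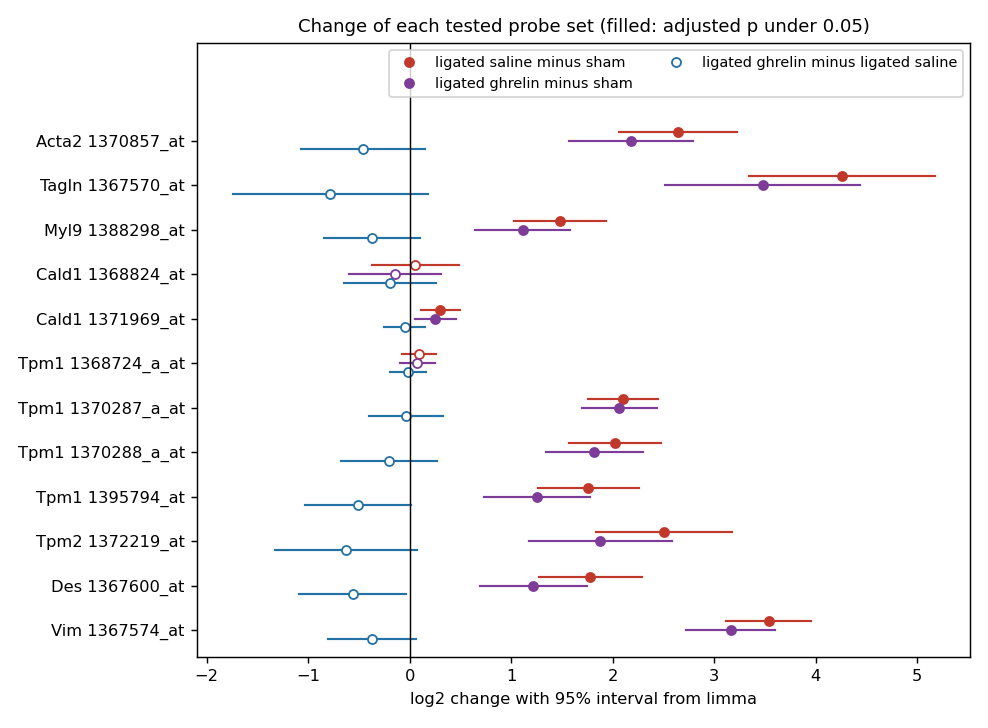
Log2 change with 95% interval from limma for the 12 tested probe sets, filled where the adjusted p is under 0.05. Ligated saline and ligated ghrelin rats both lie to the right of 0 against sham for most probe sets, while ghrelin against ligated saline has open circles from -0.78 to -0.02.

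Ligated saline rats differed among themselves more than ligated ghrelin rats in all 8 tested members by SD, for example 0.613 against 0.124 for Myl9 and 0.915 against 0.196 for Tpm2. Ligated saline 1, 2 and 3 held the highest 3 values of Acta2, Tagln, Myl9 and Tpm2 among ligated saline rats, all above every ghrelin rat. The step down to the fourth array was 0.44 for Acta2, 0.70 for Tagln, 0.76 for Myl9 and 1.19 for Tpm2. In each of these genes the highest ghrelin rat lay within that step, at 6.68, 9.79, 9.35 and 7.54. Since the same 3 ligated saline rats were highest in these genes, no pooled correlation coefficient between members is given. The filament genes were ordered otherwise: Des was highest in ligated saline 2, 3 and 6, and Vim in 1, 3 and 5. Ligated saline 3 exceeded every ghrelin rat in 8 of 8 members and ligated saline 4 in 0 of 8.

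Marker sums of other cell types also differed among these arrays. Of the 4 lists given here, the fibrogenic sum was higher in each of ligated saline 1 to 3 than in each of 4 to 6, and the other 3 sums were not. The summed intensity of the fibrogenic markers (collagens, PDGF receptors and matrix enzymes) was 36051, 35074 and 30674 in ligated saline 1, 2 and 3, and 17458, 27903 and 23662 in 4, 5 and 6. In ghrelin rats it ran from 15003 to 19655 and in sham rats from 4161 to 5853. The vascular smooth muscle and pericyte markers summed to 1291, 1074 and 1335 in the first 3 ligated saline rats and to 824, 1282 and 1332 in the others, against 518 to 821 in ghrelin and 235 to 398 in sham rats. Cholangiocyte markers summed to 12524, 4175 and 11143 and to 5395, 9653 and 4910, and did not follow the contractile genes in ligated saline 2. Leukocyte markers summed to 26200, 31922 and 19754 in ligated saline 1 to 3 and to 20044, 24298 and 29105 in 4 to 6, with the lowest sum in ligated saline 3, and ran from 16060 to 23101 in ghrelin and from 7836 to 12726 in sham rats. The part of these cells in the member values was not tested.

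**Figure D4:**
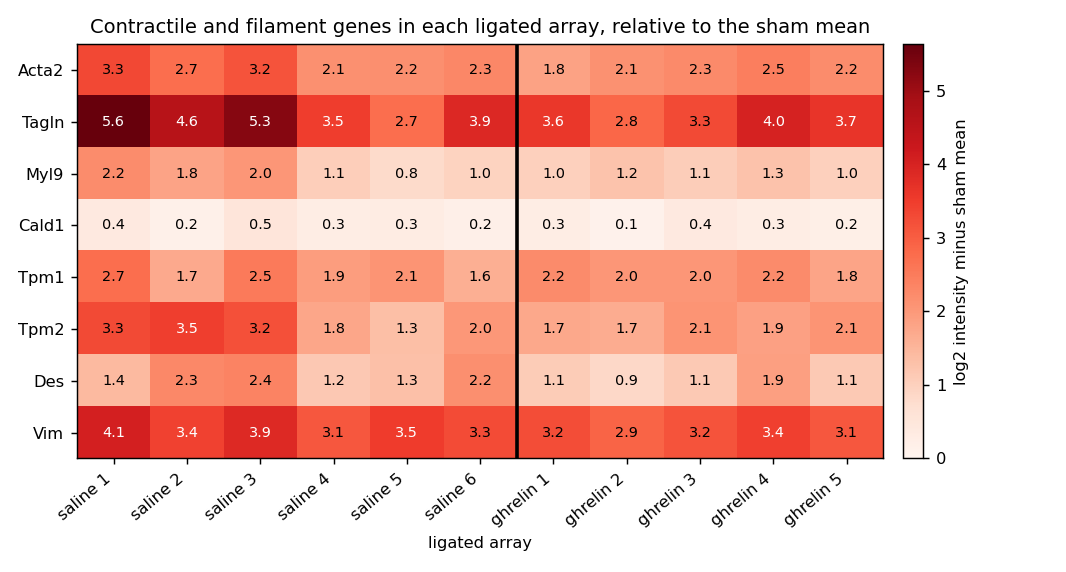
Log2 intensity minus the sham mean for the 8 tested genes (vertical) in the 11 ligated arrays (horizontal), with colour and printed value giving the difference. Ligated saline 1 to 3 hold the highest values of Acta2, Tagln, Myl9 and Tpm2, and ligated saline 4 exceeds all ghrelin arrays in 0 of 8 genes.

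The wider contractile apparatus rose with the members. Of 34 listed genes 28 were tested, and 23 rose and 0 fell in ligated saline against sham rats, with a median change of 0.94. Of all genes 37.5% rose. Sham arrays below the filter level numbered 2 for Synpo2, 4 for Myh11 and Pdlim3, 5 for Actg2 and 6 for Pdlim7. These genes met the filter only with their ligated arrays. The lowest p-values belonged to Tagln2, a relative of transgelin in non-muscle cells, at 3.28 ± 0.170, the tropomyosin Tpm4 at 2.57 ± 0.170 and filamin A (Flna), which cross-links actin, at 2.98 ± 0.201. In ghrelin against ligated saline rats 0 of 28 were called, against 2.34% of all genes. Genes of fully differentiated smooth muscle, a pair chosen after their values were seen, were near the filter level: Myh11, its myosin heavy chain, had medians of 3.69, 3.84 and 3.77 in sham, ligated saline and ghrelin rats, and Actg2, its gamma actin, 3.85, 4.0 and 3.79. Ligated saline 2 was highest in both, at 6.87 and 6.53. Neither was called (limma adjusted p = 0.541 and 0.0824). Other smooth muscle genes of the list, also named after their values were seen, were higher: Mylk, the myosin light chain kinase, rose by 0.88 ± 0.143 from a sham median of 10.22 to 11.03, and the actin-binding Synpo2 rose by 1.44 ± 0.423 (limma adjusted p = 5.35e-05 and 0.00748). Smoothelin (Smtn) changed by 0.52 ± 0.231 (limma adjusted p = 0.0617).

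Regulators of this programme were listed by 24 symbols. Among these, Mkl1, Mkl2, Ctgf and Cyr61 are older names of genes also listed under newer ones. Of the genes 14 were tested, and 12 rose and 1 fell, where 37.5% of all genes rose. Tgfb2 and Tgfb3, ligands that drive myofibroblast formation, rose by 3.29 ± 0.320 and by at least 3.27, and the endothelin gene Edn1 by at least 1.71. The bounds are against the filter level, under which all sham arrays of Tgfb3 and Edn1 lay. Tgfb3 and Edn1 were thus tested through their ligated arrays and add nothing to the count of 12. With quantile normalization or equal array medians 10 of 14 rose, since Mrtfa and Wwtr1 lost their calls. Of the other intermediate filament genes 7 of 8 rose and 0 fell, against the same share of all genes. Krt8 rose by 2.33 ± 0.106 and Krt18 by 1.62 ± 0.0808, both made in hepatocytes and bile duct cells. Synemin (Synm), a partner of desmin, rose by 2.49 ± 0.285. Nes had 4 sham arrays below the filter level and was tested through its ligated arrays. None of these 22 genes was called between ghrelin and ligated saline rats by limma, against 2.34% of all genes.

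Markers of the cells that make contractile genes rose as well. Each count here stands against the 37.5% of all genes that rose. Of 10 tested fibrogenic markers 10 rose, led by Col3a1, Col1a1 and Col1a2 at 2.50 ± 0.138, 4.64 ± 0.289 and 3.81 ± 0.252. Postn had 5 sham arrays below the filter level and was tested through its ligated arrays. All 6 portal fibroblast markers rose, including Fbn1 at 3.57 ± 0.258, Mfap4 at 4.73 ± 0.561 and Entpd2 at 1.15 ± 0.170, although Thy1 lost its call with equal array medians. Thy1 was below the filter level on 6 sham arrays, and Mfap4 and Entpd2 on 3 each. Thy1, Mfap4 and Entpd2 were thus tested through their ligated arrays. The changes given for Mfap4 and Entpd2 rest partly on sham values below that level and are approximate. Of 7 quiescent stellate cell markers 3 rose, close to the share of all genes, and 3 fell. Hgf rose by 1.42 ± 0.208, and Nr1h4 and Ecm1 changed by -1.16 ± 0.149 and -1.17 ± 0.155. Nr1h4 is also a hepatocyte gene.

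The share of 37.5% of all genes that rose stands beside the counts here as well. Of 6 tested vascular smooth muscle and pericyte markers 5 rose, led by Rgs5 at 3.09 ± 0.151 and Kcnj8 at 2.46 ± 0.227. Itga8, with 5 of 6 sham arrays below the filter level, rose by at least 3.23 on the same count. Mcam had 6 of 6 sham arrays below it, and both were tested through their ligated arrays. Cspg4, Notch3 and Pln were below the filter level on all arrays. Of the mesothelial markers 1 of 3 rose, close to that share. This was Msln, which held 2.36 to 4.71 in sham rats, with 5 of 6 arrays below the filter level, and 9.25 to 11.17 in ligated saline rats. With sham values below that level counted as it, Msln was higher by at least 5.82. Of 8 endothelial markers 3 rose, also close to the share of all genes, and 1 fell. Among these, Tie1 changed by 0.97 ± 0.153, Vwf by 1.31 ± 0.306 and Kdr by -0.82 ± 0.123. Of 10 leukocyte markers 8 rose and 1 fell, with C1qb at 1.50 ± 0.157, C1qa at 1.26 ± 0.144 and Lyz2 at 1.89 ± 0.216. Itgam had 2 sham arrays below the filter level and was tested through its ligated arrays. Of 9 hepatocyte markers 0 rose and 4 fell, among them Hnf4a by -0.79 ± 0.097, Asgr1 by -0.54 ± 0.0868 and Ttr by -0.20 ± 0.0627; 8 of 9 fell with equal array medians. Of 10 skeletal muscle markers on the array 8 were below the filter level on all arrays, Acta1, Ckm and Mb among them, and the 1 tested, Myh1, changed by -0.60 ± 0.106.

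In ligated ghrelin against sham rats, 23 of 28 genes of the contractile apparatus, 12 of 14 regulators and 6 of 8 other filament genes rose, the lowest p-values belonging to the same genes as in ligated saline rats: Tagln2 at 3.12 ± 0.179, Tpm4 at 2.17 ± 0.178 and Flna at 2.58 ± 0.211 in the first list. Of the markers, 9 of 10 fibrogenic, 6 of 6 portal fibroblast, 4 of 6 vascular smooth muscle and pericyte and 5 of 5 cholangiocyte genes rose. Of all genes 35.0% rose in this comparison. The counts include the genes named above as tested through their ligated arrays.

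Few of these markers were called lower with ghrelin against ligated saline. Col3a1, a fibrillar collagen, differed by -0.68 ± 0.145 in ghrelin against ligated saline rats (limma adjusted p = 0.0342). Rgs5, a regulator of G protein signals in pericytes, differed by -0.70 ± 0.158 and Abcc9, a potassium channel subunit of the same cells, by -0.87 ± 0.215 (limma adjusted p = 0.0389 and 0.0468). The 3 were the marker calls of this comparison: 1 of 10 tested fibrogenic and 2 of 6 vascular smooth muscle and pericyte markers. Of all genes 0.585% were called lower. With equal array medians Hnf4a and Myh1 were called higher too. The calls were lost in 8, 10 and 11 of 18 alternatives. Fitting only the compared groups lost all 3 (limma adjusted p = 0.0661, 0.0641 and 0.0588), as did leaving out the filter (limma adjusted p = 0.0518, 0.0602 and 0.0811). All 3 calls were lost without any 1 of ligated ghrelin 1, 2 or 5 or ligated saline 1, 3 or 5, and the highest limma adjusted p was 0.0979 for Col3a1, 0.110 for Rgs5 and 0.129 for Abcc9, each without ligated ghrelin 2. Those of Rgs5 and Abcc9 were lost also without ligated ghrelin 3 or ligated saline 6, and that of Abcc9 without ligated saline 2. Over the alternatives the differences ran from -0.79 to -0.61, -0.79 to -0.57 and -0.99 to -0.77.

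**Figure D5:**
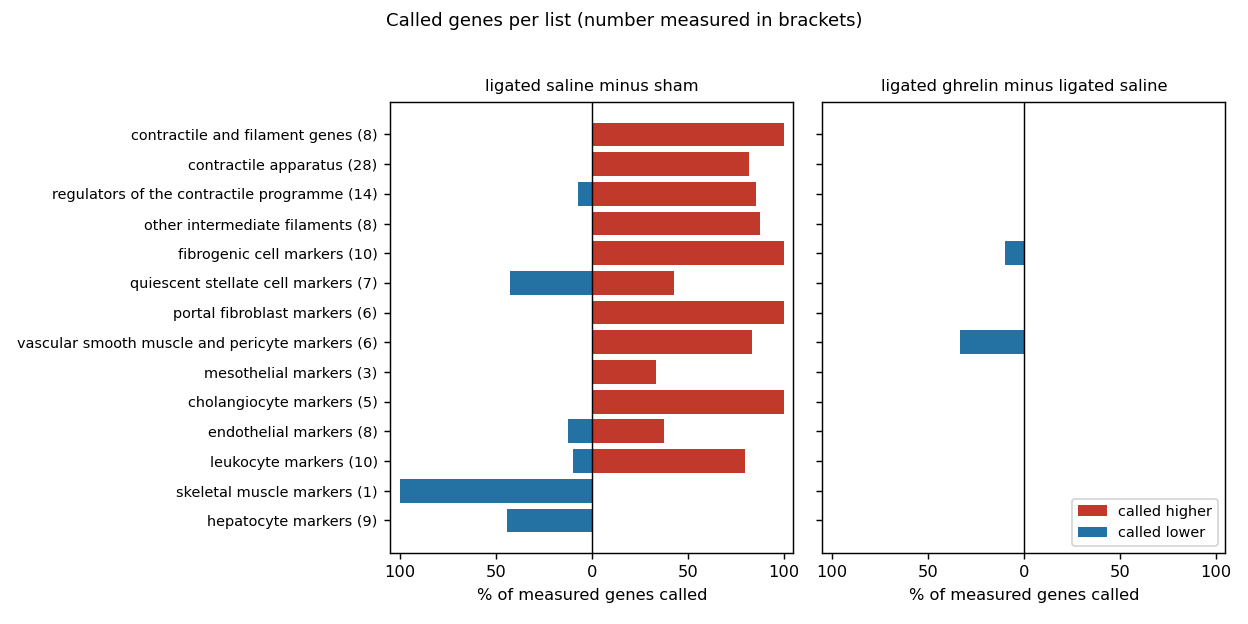
Percent of the measured genes of each list called higher (to the right) or lower (to the left) by limma at an adjusted p under 0.05, with the number measured in brackets. The contractile and filament genes have 8 of 8 called higher with ligation and 0 of 8 called with ghrelin. Of all genes 37.5% were called higher with ligation and 2.34% were called with ghrelin.

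The genes whose pattern was most like that of Acta2, by Pearson correlation over all 17 arrays after group means were subtracted, were Gstm5 (r = 0.87), Rassf10 (0.85), Rpsa (0.82), Kank2 (0.80) and Haus6 (0.79), out of 9735 genes. This is a description, and arrays share their scaling. The split among ligated saline arrays enters these values. Over the 11 ligated arrays alone, an alternative chosen after seeing the data, the 5 genes most like Acta2 were others: Lpar1, Myl9, Actr10, Fstl1 and Slco3a1. The likeness of the members to Acta2 differed with the arrays taken: Myl9 ranked 17 and Tagln 1041 over all arrays, and 2 and 9 over the ligated ones. Without sham 2, the correlations of the 5 genes were 0.82, 0.82, 0.81, 0.56 and 0.65.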

How the data were processed

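Liver RNA of 17 rats was measured on 1 array each. The authors deposited 1 intensity value per probe set, made with GCRMA per the submitters' processing notes; its version is not given in the sources used here. These intensity values, as deposited, are linear (above 2), and were converted to log2 without a pseudocount; GCRMA is a background correction and probe summary that compresses low intensities. All 17 sample titles name the ligation, so groups were taken from the source and treatment labels. Controls (57 of 31099 probe sets) were left out. A probe set was kept where it exceeded 15.5 (log2 3.95) on at least 5 arrays. The platform annotation gives 20826 probe sets 1 symbol, 436 several and 9780 none; 20758 of those with 1 symbol matched the RefSeq annotation (GRCr8), which changed 0 symbols. The probe set with the highest mean among those kept stood for a gene.

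A model of 3 group means was fitted with limma 3.58.1 in R 4.3.3 (14 residual and 2.54 prior degrees of freedom), with Benjamini-Hochberg adjustment over kept probe sets and a threshold of 0.05. It was tested on simulated data. Exact two-sided permutation tests enumerated all regroupings of the compared arrays. The text names all members, up to 3 called genes of lowest p per list (for ligation with ghrelin, of the contractile apparatus list), and the 5 genes most like Acta2. The coefficients of a planned correlation among members over ligated arrays are not given. The reason is that the same 3 ligated saline rats were highest in Acta2, Tagln, Myl9 and Tpm2. Ranks of Myl9 and Tagln by these coefficients are given. Alternatives were scaling, filter, groups fitted, variance model, probe set and leaving out each array. Members and lists were chosen with earlier results of these data known. The labels give no batch, and the number of arrays limits the precision.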

Additional observations from a re-analysis of the deposited data

Results flagged for a closer look

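Of 36 groups of 5 or 6 values of the member probe sets that were checked for 1 array far from the others (Dixon's test), 4 had one, where chance gives about 1 in 20. Acta2 in sham 2 was 2.92, with the other sham arrays at 4.22 to 4.64. Tagln in sham 6 was 4.38, with the others at 5.88 to 6.26. The second Cald1 probe set, 1368824_at, was 9.14 in ligated ghrelin 3, with the others at 10.10 to 10.45, and that array also had the highest 3′ minus 5′ signal of the actin controls, 2.62, and of the GAPDH controls, 0.62. Des in ligated ghrelin 4 was 6.08, with the others at 5.04 to 5.32. The cause was not tested in any of the 4.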

How the results depend on the processing

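Every member but Cald1 kept its direction and its call in both comparisons with sham in all alternatives run for it; the ligation change ran from 2.38 to 2.74 for Acta2, 3.98 to 4.57 for Tagln and 3.35 to 3.64 for Vim. For Cald1 the ligation call was lost with equal array medians (0.11) and with the probe set of largest variance (0.06). In ghrelin-treated ligated rats against sham it reversed with that probe set (-0.14, limma adjusted p = 0.598). The stricter filter left 5 members, all called, in both comparisons with sham; leaving out 1 array gave 8 members for ligation and 7 to 8 for ligation with ghrelin. Probe sets called for ligation were 9825, with 22230 without a filter, 5860 with the stricter one and 9215 to 9679 leaving out 1 array. For ligation with ghrelin they were 8534, then 19914, 5213 and 7805 to 8428. For ghrelin they were 355, with 611 for equal array medians, 542 for quantile normalization, 154 without a filter, 118 with only the compared groups fitted, and 35 to 653 leaving out 1 array. The cause of these moves was not tested, apart from the number of probe sets tested under each filter. Ghrelin against ligated saline gave 0 members called throughout. No paired analysis was possible because the labels give no replicate numbers shared between groups. Genes near the filter level, Cnn1 most of all, are limited by signal over background.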
